A study of Mus musculus with 13 samples.

Results

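The apelin and KIT pairs are 4 genes: the ligand Apln and its receptor Aplnr, and the ligand Kitl and its receptor Kit. They were chosen by symbol from the 32544 symbols of the count table, as ligand and receptor genes that lung capillary endothelial cells use, and partly for the loss of Aplnr in hyperoxia. Because the comparison of hyperoxia with normoxia was used in choosing them, their differences, with the errors of the fit, are given as a description, and no p-value is given for them. All 4 were among the 12496 genes that passed the filter on low counts, and Aplnr passed it through the normoxic libraries alone.

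In hyperoxic lung the transcripts of both receptors were lower and those of the ligands were not. Apln went from 23.4 ± 5.49 to 67.3 ± 24.3 CPM (read counts scaled to library size, mean ± SD, n = 7 normoxic and 6 hyperoxic libraries), whereas Aplnr was at 14.0 ± 4.57 and 0.149 ± 0.257 CPM. Kit went from 76.4 ± 15.8 to 12.4 ± 7.02 CPM, and its ligand Kitl was at 266 ± 56.3 and 310 ± 53.6 CPM, in ranges that overlapped.

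The libraries were made from perfused, flash-frozen lung of wild-type male C57BL/6J mice, bought at 7 weeks of age. The mice breathed 21% oxygen (normoxia, 7 libraries) or 80% oxygen (hyperoxia, 6 libraries) for 5 days, and the groups shared strain, sex and genotype. Quant-seq, which reads the 3′ ends of polyadenylated transcripts, was run on RNA of the whole organ, so transcripts of all lung cell types were pooled and neither peptide, receptor protein nor signalling was measured. Fewer cells of a type and less RNA per cell cannot be told apart in such samples.

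Apelin is a secreted peptide that acts on a G protein-coupled receptor, the product of Aplnr, and the pair is known for its part in vessel growth and tone. KIT is a receptor tyrosine kinase whose ligand, stem cell factor, is the product of Kitl and is made as a membrane-bound form that proteases can release. In lung capillaries, Apln is a known marker of aerocytes, the wide, thin endothelial cells of gas exchange, while Aplnr and Kit mark general capillary cells, which can renew the capillary bed. KIT is also carried by mast cells and some innate lymphoid cells, so whole-lung Kit counts need not come from endothelium alone.

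Total counts ran from 1607111 to 3387736 in the normoxic libraries and from 2029006 to 4540288 in the hyperoxic ones. The library Hyperoxia 1 stood apart from the rest: its correlation with the other 12 libraries over the log2 CPM of the tested genes was 0.721 to 0.833, against 0.854 to 0.967 among those 12. The levels and fold changes of the members are therefore given with and without it, as are several of the other genes and lists. Correlations between genes are given with it alone. The library names carry letters, from B to M in 8 cases (5 of normoxia, 3 of hyperoxia) and from O to S in the other 5 (2 and 3), and differences within each set of letters are given beside the pooled ones. The tissue label was checked against lung epithelial genes, and Sftpc, a surfactant protein gene, had 9640 ± 2850 CPM in normoxia (n = 7) and 1460 ± 1010 CPM in hyperoxia (n = 6), with 32.7 CPM in its lowest library. The summed level of the 5 epithelial genes listed was 25400 to 74500 CPM in normoxia and 4030 to 16500 CPM in hyperoxia (6440 to 16500 without Hyperoxia 1). Of these 5, 3 were lower in hyperoxia and 0 higher by edgeR's quasi-likelihood test, with a median log2 fold change of -1.69.

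**Figure D1:**
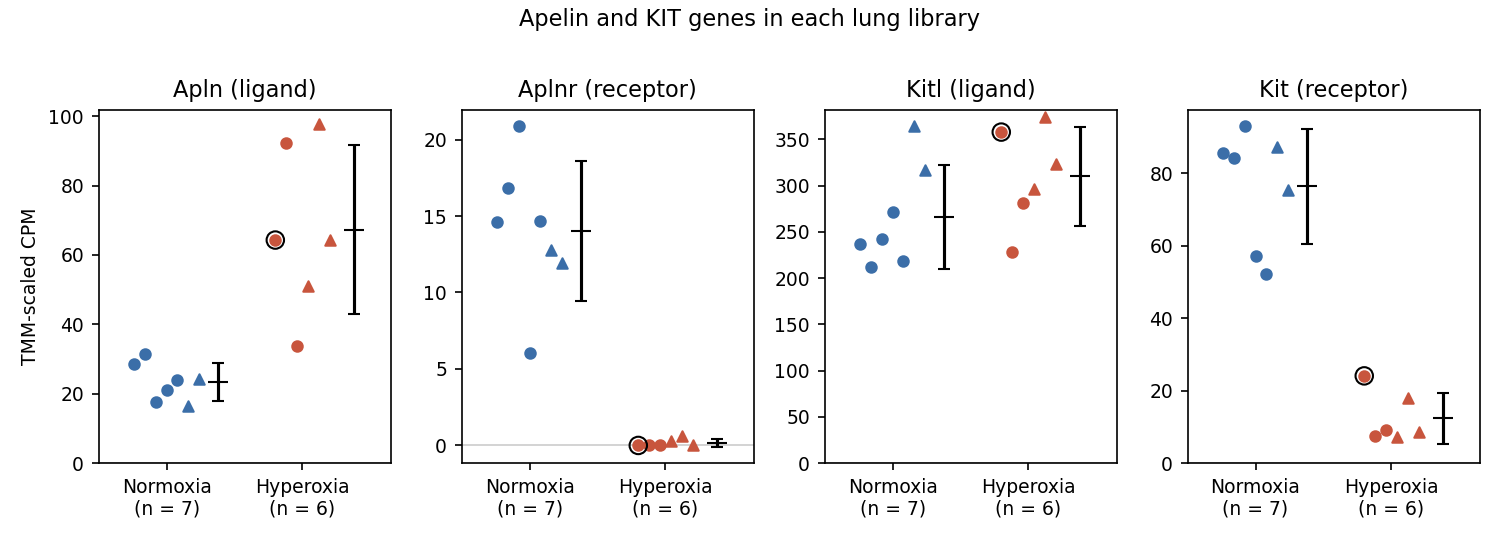
TMM-scaled CPM of each member in the 7 normoxic (blue) and 6 hyperoxic (red) libraries, on linear axes that differ between panels. Circles are libraries B to M, triangles O to S, the black ring marks Hyperoxia 1, and the black mark beside each group is the mean with its SD. All hyperoxic points of Aplnr and Kit lie below all normoxic ones, all those of Apln lie above, and those of Kitl share the normoxic range.

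Apln encodes the apelin precursor and lies on the minus strand of chromosome X, from 48025146 to 48034853 in GRCm38, with 3 exons in its 1 annotated transcript. Its level was lowest at 16.4, at the median 23.9 and highest at 31.4 CPM in normoxia. In hyperoxia the lowest library was at 33.7, the median at 64.3 and the highest at 97.8 CPM. Every hyperoxic library was above every normoxic one, with Hyperoxia 3 the nearest to the normoxic range and Hyperoxia 5 and Hyperoxia 2, at 92.2 CPM, the farthest from it. The fitted log2 fold change was 1.52 (SE 0.24, 95% interval 1.02 to 2.03), which is 2.88-fold on the linear scale, from 464 counts in normoxia and 1258 in hyperoxia. The hyperoxic libraries also varied more around their mean, with a coefficient of variation of 36.2% against 23.5% in normoxia. Libraries B to M alone gave a difference of 1.26 in mean log2 CPM, and libraries O to S 1.74.

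Aplnr, the apelin receptor gene, lies on the plus strand of chromosome 2 from 85136225 to 85139923, with 2 transcripts of up to 2 exons. In normoxia it was at 6.06 CPM in the lowest library, 14.6 at the median and 20.9 in the highest, from 279 counts in all. In hyperoxia 3 counts were left in the whole group, 1 in Hyperoxia 4 (0.269 CPM) and 2 in Hyperoxia 5 (0.625 CPM), and the other 4 libraries had 0. A count of 3 per library, taken as the floor, corresponded to 0.656 to 1.61 CPM, so all 6 hyperoxic libraries lay under their floor. The hyperoxic libraries were deep enough to hold 26.0 to 63.9 counts each at the normoxic mean. When libraries were pooled, the receptor gene had 13.8 CPM in the normoxic and 0.159 CPM in the hyperoxic group, a ratio of 87.1 with an exact 95% interval of 29.5 to 425 that covers counting error only. The fitted log2 fold change of -6.12 (SE 0.54, 95% interval -7.28 to -4.97) depends on the prior count for a gene so near 0. The receptor was low in both sets of letters, with differences in mean log2 CPM of -4.42 within B to M and -3.81 within O to S.

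Without Hyperoxia 1, Apln was at 67.8 ± 27.2 and Aplnr at 0.179 ± 0.275 CPM in the other 5 hyperoxic libraries, with log2 fold changes of 1.55 and -5.99. Leaving out Hyperoxia 5, which held 2 of the 3 Aplnr counts, took the pooled ratio to 217, and over all libraries left out in turn it ran from 66.0 to 217.

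Kitl encodes stem cell factor and lies on the plus strand of chromosome 10 from 100015630 to 100100416, with 6 annotated transcripts, 4 of them coding. Its normoxic libraries were at 212 (lowest), 242 (median) and 365 CPM (highest). Its hyperoxic libraries were at 228, 310 and 374 CPM. The groups overlapped over most of their range, since Normoxia 6 and Normoxia 7 (365 and 317 CPM) lay among the hyperoxic libraries and Hyperoxia 2 lay among the low normoxic ones. The log2 fold change was 0.22 (SE 0.16), and its 95% interval of -0.12 to 0.56 includes a fall, no difference and a rise. Within libraries B to M the mean went from 236 to 289 CPM (a difference of 0.27 in mean log2 CPM), and within O to S from 341 to 331 CPM (-0.04), so the direction was not the same in both sets. Without Hyperoxia 1 the hyperoxic level was 301 ± 54.0 CPM (n = 5) and the log2 fold change 0.19. Counts summarised by symbol do not separate the membrane-bound from the released form of the ligand.

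Kit, the receptor gene, lies on the plus strand of chromosome 5 from 75574916 to 75656722, with 8 annotated transcripts, 2 of them coding, and up to 21 exons in a transcript. The normoxic libraries were at 52.1 (lowest), 84.2 (median) and 93.2 CPM (highest), with Normoxia 4 and Normoxia 5 below the other 5. The hyperoxic libraries were at 7.27, 8.78 and 24.1 CPM, and none reached the lowest normoxic one. The log2 fold change was -2.65 (SE 0.29, 95% interval -3.26 to -2.04), which is 6.29-fold lower, from 1577 counts in normoxia and 215 in hyperoxia. Unlike Aplnr, Kit stayed measurable in every hyperoxic library: 4 of them retained between 9.51% and 11.8% of the normoxic mean, Hyperoxia 5 retained 23.7% and Hyperoxia 1 retained 31.6%. Without Hyperoxia 1 the hyperoxic level was 10.1 ± 4.54 CPM (n = 5) and the log2 fold change -2.91. Libraries B to M alone gave a difference of -2.54 in mean log2 CPM, and libraries O to S -2.88. None of the 4 genes overlaps another annotated gene on either strand.

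Counted by the edgeR quasi-likelihood test at an adjusted p under 0.05, 1 member was higher in hyperoxia, 2 were lower and 1 did not pass. Of all 12496 genes tested, 11.8% were called higher and 10.8% lower by this test. Of the members, 1 was higher and 2 were lower without overlap between the groups, against 5.60% of all genes higher and 5.23% lower in this way. Since the contrast was part of the choice of members, nothing is read from these counts.

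The members were compared with each other within groups. After each group's mean was subtracted, Pearson's r of log2 CPM over the 13 libraries was 0.23 for Apln with Aplnr and 0.50 for Kit with Kitl. It was 0.35 for the receptors Aplnr and Kit with each other, and between -0.20 and 0.20 for the other 3 pairs. In the hyperoxic libraries alone (n = 6) all 6 pairs were above 0, from 0.11 for Apln with Kitl to 0.76 for Kit with Kitl, and in the normoxic ones (n = 7) they ran from -0.62 for Apln with Kitl to 0.58 for Aplnr with Kit. These are descriptions over libraries that share depth and, for Aplnr, many values at 0. By the same measure, over 10112 genes for Aplnr and 10111 for the others, the closest to Apln were Fam219a (0.91), Cd34 (0.85), a surface marker of endothelial and progenitor cells, and Oraov1 (0.84). The closest to Kitl were Rev3l (0.95), Efnb2 (0.94), an arterial ephrin ligand, and Lyst (0.94). Those closest to Kit were Il18bp (0.93), Vwa1 (0.93) and Snrpd3 (0.89), and those to Aplnr were Rnf166 (0.85), Ttc7 (0.79) and Thumpd1 (0.76). All these neighbours were picked as the highest of 10111 or 10112 correlations over 13 libraries. High values can arise by chance in such a search, and none was tested.

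Whether the receptors went with the capillary endothelium as a whole was examined with marker genes of the same libraries. Pan-endothelial genes moved both ways. Of 11 tested, 3 were higher, 2 lower and 6 did not pass, with a median log2 fold change of 0.18 against -0.03 over all genes tested. Cdh5, the junction cadherin of endothelium, was at 219 ± 19.8 and 249 ± 29.4 CPM (edgeR adjusted p = 0.307), and Pecam1, an adhesion molecule of endothelial cells and some leukocytes, was at 2770 ± 862 and 1600 ± 1300 CPM (edgeR adjusted p = 0.198); both were named after their values were seen. Without Hyperoxia 5, Pecam1 was called lower (log2 fold change -1.26, edgeR adjusted p = 0.0263). The coreceptor Eng rose (log2 fold change 1.02, SE 0.22, edgeR adjusted p = 0.00334), as did Egfl7 (1.37, SE 0.33, adjusted p = 0.00715, and 0.84 without Hyperoxia 1), and Robo4 rose by 0.79 (SE 0.25, adjusted p = 0.0302). For Robo4 the call was lost in 4 of 13 fits that left out 1 library (Normoxia 6, Normoxia 7, Hyperoxia 2 or Hyperoxia 4), with an adjusted p of up to 0.0650. The receptor tyrosine kinase gene Tie1 (-0.70, SE 0.16, adjusted p = 0.00572) and the transcription factor gene Erg (-0.77, SE 0.19, adjusted p = 0.00987) fell. Without Hyperoxia 1 the counts were 4 higher and 2 lower. The summed level of the 12 listed genes was 2830 to 5400 CPM in normoxia and 2530 to 5980 CPM in hyperoxia. Most of the normoxic sum was Pecam1 (a mean of 2770 of 4080 CPM). The hyperoxic mean was 4040 CPM, with Pecam1 lower at 1600 CPM and Egfl7 higher, at 1300 CPM after 501 CPM in normoxia. Similar sums therefore do not show that the endothelial genes were unchanged.

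General capillary markers moved both ways. Of 6 tested, 3 fell, 1 rose and 2 did not pass, and the median log2 fold change was -0.76. Gpihbp1, which anchors lipoprotein lipase in capillaries, fell from 95.3 ± 16.6 to 32.8 ± 11.0 CPM (edgeR adjusted p = 1.2e-04), the endothelial phosphatase gene Ptprb from 1150 ± 181 to 514 ± 39.3 CPM (edgeR adjusted p = 2.3e-05), and the angiopoietin receptor gene Tek from 126 ± 20.6 to 65.7 ± 12.4 CPM (edgeR adjusted p = 5.7e-04). Cd93, a surface glycoprotein of endothelial and myeloid cells, rose from 755 ± 59.2 to 3480 ± 1230 CPM (edgeR adjusted p = 1.7e-06). Without Hyperoxia 1 the counts were 1 higher and 4 lower. The log2 fold changes of the 3 markers that fell were -1.53 for Gpihbp1, -1.16 for Ptprb and -0.94 for Tek, beside -6.12 for Aplnr and -2.65 for Kit, and these differences between genes were not tested.

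Aerocyte markers, which belong to the cells known for Apln, did not rise with it. Of 7 tested, 0 were higher and 3 lower by the edgeR test, with a median of -0.50, and without Hyperoxia 1 the count of lower genes was 5. The endothelin receptor gene Ednrb fell from 62.4 ± 10.8 to 16.5 ± 7.17 CPM (edgeR adjusted p = 2.2e-04) and Fibin from 48.8 ± 7.97 to 14.6 ± 5.40 CPM (edgeR adjusted p = 5.3e-05). The carbonic anhydrase gene Car4 fell from 93.7 ± 20.1 to 52.4 ± 23.6 CPM (edgeR adjusted p = 0.0381), a call lost in 6 of 13 fits that left out 1 library (Normoxia 1, 2, 3 or 5, or Hyperoxia 3 or 4), with adjusted p of 0.0564 to 0.0736. No aerocyte marker was called higher at an unadjusted p either, since all 7 log2 fold changes were below 0, from -1.89 to -0.21.

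**Figure D2:**
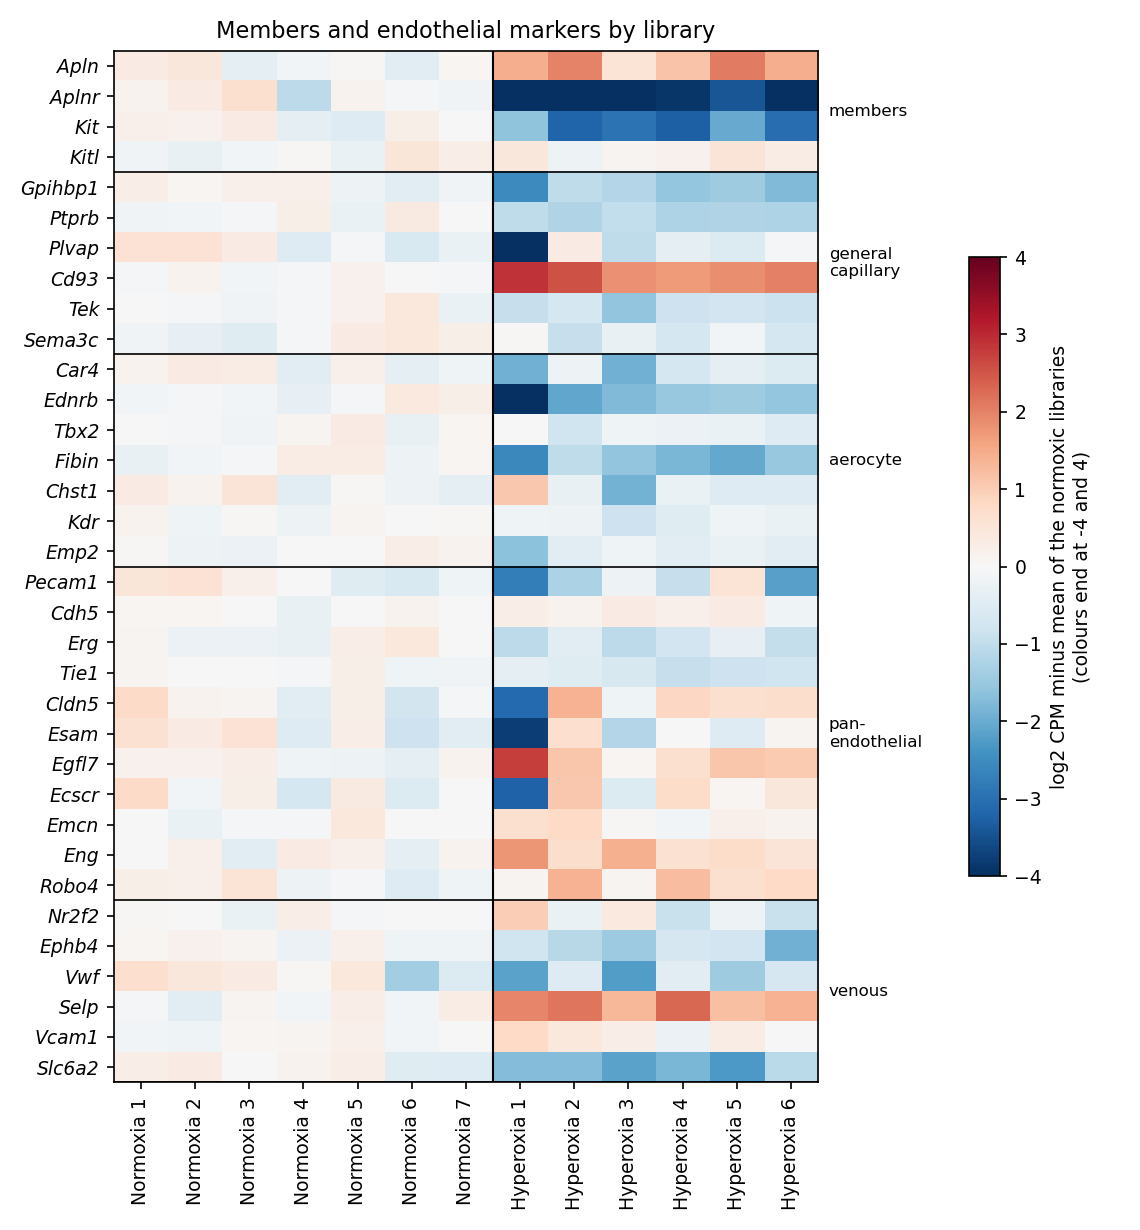
Colour gives log2 CPM (prior count 2) minus the mean of the 7 normoxic libraries, for the 4 members and the tested general capillary, aerocyte, pan-endothelial and venous markers in each of the 13 libraries. Red is higher and blue lower, and colours end at -4 and 4. Aplnr and Kit are blue and Apln red in all 6 hyperoxic columns, while pan-endothelial rows are mixed and the column of Hyperoxia 1 holds the deepest blue of several of them.

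Ratios of the members to single endothelial markers within each library were computed after the values were seen. They are ratios of counts, so the unlike lengths and 3′ ends of the genes make their size arbitrary and only the groups can be compared. The markers are not a fixed scale, since their own log2 fold changes ran from -1.89 (Ednrb) to 2.20 (Cd93). Some, such as Cd93 and Pecam1, are also expressed outside the endothelium. A ratio therefore cannot tell fewer cells from less RNA per cell. For Kit over Cdh5 the ratio was 0.237 to 0.419 in normoxia and 0.0292 to 0.0915 in hyperoxia, and for Kit over Kdr, a receptor gene for VEGF, it was 0.0848 to 0.167 and 0.0156 to 0.0485. Against the 24 markers tested, the ratio of Kit was lower in hyperoxia without overlap for 12 and overlapped for 12, among them Gpihbp1 (0.530 to 1.26 and 0.163 to 1.55). Without Hyperoxia 1, the library with the lowest Gpihbp1 (15.5 CPM), it was lower without overlap for 23 and overlapped for 1. The ratio of Aplnr was lower without overlap for all 24, as its counts near 0 in hyperoxia make unavoidable.

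The Apln ratio was higher without overlap for 15 of 24 markers and overlapped for 9, and for 17 and 7 without Hyperoxia 1. By class it was higher for 6 of 7 aerocyte, 5 of 6 general capillary and 4 of 11 pan-endothelial markers. These counts follow largely from values already given, since Apln was higher in every hyperoxic library. Of the markers, 0 of 7 aerocyte, 1 of 6 general capillary and 7 of 11 pan-endothelial genes had log2 fold changes above 0. Over Car4 the Apln ratio was 0.157 to 0.309 in normoxia and 0.913 to 2.73 in hyperoxia, and over Kdr 0.0290 to 0.0625 and 0.107 to 0.196. Over Cdh5 it was 0.0685 to 0.138 and 0.124 to 0.382, so that these ranges touched. For Kitl, which many cell types make, the ratio overlapped for 18 markers, was higher for 5 and was lower for 1. The 24 ratios of a member share its counts and are not separate measurements.

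Enzymes that act on apelin were read beside it. Neprilysin, the product of Mme, cuts apelin peptides, and FURIN can process the precursor. Mme fell from 245 ± 33.3 to 141 ± 44.6 CPM (log2 fold change -0.80, SE 0.18, edgeR adjusted p = 0.00459). Furin was at 136 ± 21.2 and 228 ± 137 CPM (0.74, SE 0.28, edgeR adjusted p = 0.0715), with 479 CPM in its highest hyperoxic library. In 5 of 23 alternatives Furin was called higher: without Hyperoxia 4 (edgeR adjusted p = 0.0391) or Hyperoxia 6 (0.0275), with DESeq2, with a term for the letter set and within libraries B to M. Without Hyperoxia 1 its log2 fold change was 0.40 (edgeR adjusted p = 0.151). Apela, the other ligand of the receptor, was too low to test, with 5 counts in normoxia and 20 in hyperoxia.

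Downstream of the apelin receptor the list held G protein subunits, arrestins, kinases and the transcription factors of flow and MEF2 signalling. Of 19 tested, 5 were higher, 2 lower and 12 did not pass, with a median of 0.21. The count of higher genes was 2 with a replicate block and within libraries B to M, and 3 within O to S, with limma on the deposited values, with library size alone and without Normoxia 4, and without Hyperoxia 1 the counts were 6 higher and 3 lower. Of the 5, the G protein subunit gene Gnai1 lost its call in 6 of 13 fits that left out 1 library (Normoxia 2, 3, 4 or 5, or Hyperoxia 4 or 6) and Gna13 in 1 (Normoxia 4), both named after their values were seen. Nos3, the endothelial nitric oxide synthase, rose from 18.7 ± 4.96 to 70.9 ± 26.0 CPM (log2 fold change 1.92, SE 0.24, edgeR adjusted p = 4.3e-05), and its hyperoxic libraries, at 39.3 to 117 CPM, were all above the normoxic ones, at 11.6 to 25.4 CPM. The growth factor gene Fgf2 rose from 19.1 ± 3.52 to 40.3 ± 7.71 CPM (1.07, SE 0.17, edgeR adjusted p = 4.1e-04), also without overlap, and Klf4, a transcription factor gene induced by flow, from 440 ± 132 to 712 ± 166 CPM (0.69, SE 0.21, adjusted p = 0.0228). The transcription factor gene Mef2c fell from 136 ± 16.4 to 74.3 ± 26.2 CPM (-0.88, SE 0.20, adjusted p = 0.00454) and the histone deacetylase gene Hdac5 from 85.2 ± 9.20 to 53.1 ± 16.3 CPM (-0.68, SE 0.17, adjusted p = 0.00940).

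In the KIT cascade calls were few in both directions. Of 21 adaptors, kinases and other transducers, 2 were higher, 2 lower and 17 did not pass, with a median of 0.04, beside 11.8% of all genes tested called higher and 10.8% lower. The count of higher genes was 1 without Normoxia 1, 2, 3, 4 or 7 or Hyperoxia 4. The adaptor gene Gab2 rose from 59.2 ± 10.9 to 122 ± 45.7 CPM (log2 fold change 1.04, SE 0.20, edgeR adjusted p = 0.00173), without overlap. Pik3cd, a leukocyte catalytic subunit of phosphoinositide 3-kinase, fell from 10.7 ± 3.94 to 3.23 ± 1.57 CPM (-1.68, SE 0.34, edgeR adjusted p = 0.00240), and the Src family kinase gene Lyn from 164 ± 14.6 to 113 ± 18.6 CPM (-0.55, SE 0.13, edgeR adjusted p = 0.00623). Without Hyperoxia 1 the counts were 3 higher and 3 lower. Of 9 genes for inhibitors of KIT, such as phosphatases, CBL ligases and SPRED proteins, 0 were higher and 0 lower by the edgeR test, although 3 were higher without Hyperoxia 1, and the median was 0.21.

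Release of the KIT ligand is governed by proteases and their inhibitors. Timp3, which inhibits ADAM17, rose from 174 ± 26.6 to 306 ± 45.7 CPM (log2 fold change 0.81, SE 0.14, edgeR adjusted p = 8.2e-04), with all hyperoxic libraries (228 to 357 CPM) above the normoxic ones (120 to 197 CPM). Adam17 itself was at 128 ± 5.47 and 123 ± 32.9 CPM (-0.06, SE 0.15, adjusted p = 0.816). Mmp9, a matrix protease that can release the ligand, was at 7.35 ± 2.18 and 3.45 ± 2.45 CPM (-1.12, SE 0.41, adjusted p = 0.0606), and it was called lower without Normoxia 6 (0.0444), Hyperoxia 1 (0.0157) or Hyperoxia 4 (0.0419), and in 4 other alternatives (DESeq2, limma-voom, limma on the deposited values and library size alone). The median of the 3 was -0.06.

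Of 8 tested genes for transcription factors known to act at Kit in blood and mast cells, 1 was lower, 7 did not pass and the median was -0.47. Lmo2, a bridging factor of the TAL1 and GATA complex that endothelial cells also express, fell from 45.6 ± 5.84 CPM to a median of 12.2 CPM (SD 2.73, log2 fold change -1.80, SE 0.17, edgeR adjusted p = 2.4e-06), with hyperoxic libraries at 11.3 to 18.4 CPM, all below the lowest normoxic library at 40.2 CPM. Its partners, named after their values were seen, gave 72.6 ± 9.30 and 48.6 ± 21.1 CPM for Gata2 (edgeR adjusted p = 0.157) and 18.8 ± 4.31 and 21.0 ± 5.68 CPM for Tal1 (adjusted p = 0.672).

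**Figure D3:**
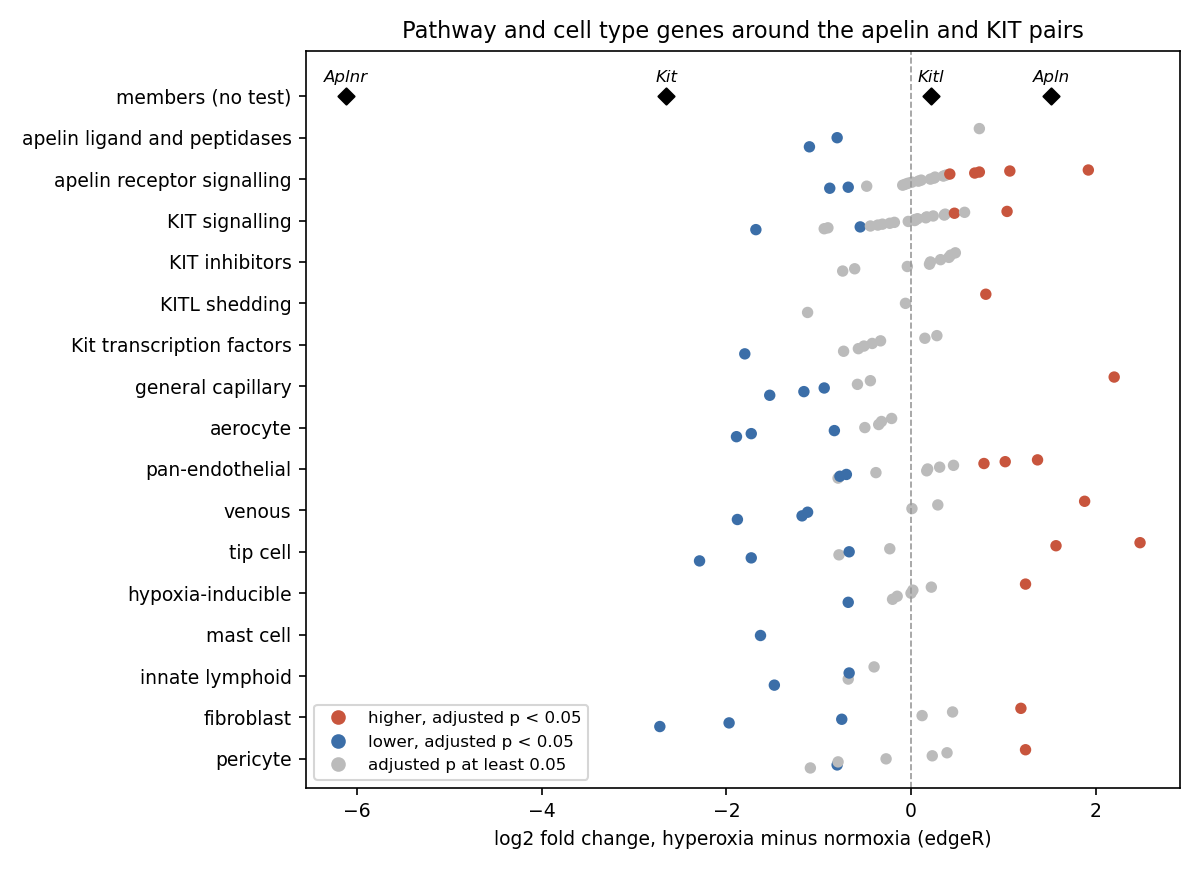
Log2 fold change (hyperoxia minus normoxia, edgeR) of each tested gene of the pathway and cell type lists, 1 row per list, with calls at an adjusted p under 0.05 in red (higher) and blue (lower) and the other genes in grey. The 4 members are black diamonds, drawn without their calls because the contrast was used to choose them. Aplnr at -6.12 lies to the left of every listed gene, and Apln at 1.52 lies to the right of all aerocyte markers.

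Other cell types that carry KIT were examined through their markers. Mast cell transcripts were scarce in both groups. Of 9 markers, Tpsab1 and Mrgprb2 had 0 counts in all 13 libraries and 6 others averaged no more than 0.849 CPM in either group. Hdc, the histidine decarboxylase gene that basophils, neutrophils and other cells also express, was the 1 marker that passed the filter, and it fell from 34.6 ± 6.45 to 10.9 ± 7.02 CPM (log2 fold change -1.63, SE 0.39, edgeR adjusted p = 0.00662). The summed level of the list, which is mostly Hdc, was 29.9 to 43.8 CPM in normoxia and 1.07 to 19.7 CPM in hyperoxia (6.95 to 19.7 without Hyperoxia 1). Of 4 innate lymphoid markers tested, 2 were lower and 0 higher: Icos (-1.48, SE 0.41, edgeR adjusted p = 0.0170) and Il7r (-0.67, SE 0.23, adjusted p = 0.0431), the latter lost in 10 of 13 fits without 1 library (each except Normoxia 5, Hyperoxia 1 and Hyperoxia 3), with adjusted p of 0.0535 to 0.117. The summed level of the 6 listed genes was 98.4 to 144 CPM in normoxia and 55.5 to 129 CPM in hyperoxia, and its part in the level of Kit was not tested.

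Apln is also a gene of tip cells, the leading cells of vessel sprouts, and of the hypoxia response. Tip cell genes moved both ways, with 2 of 7 higher, 3 lower and a median of -0.67. Angpt2, the angiopoietin of sprouting vessels, rose from 27.5 ± 4.56 to 81.9 ± 21.9 CPM (log2 fold change 1.57, SE 0.18, edgeR adjusted p = 1.9e-05), and Pgf, a growth factor of the VEGF family, from 1.43 ± 0.664 to 8.31 ± 3.92 CPM (2.48, SE 0.38, edgeR adjusted p = 2.6e-04). The chemokine receptor gene Cxcr4 fell from 9.10 ± 3.37 to 1.89 ± 0.675 CPM (-2.29, SE 0.34, edgeR adjusted p = 2.0e-04), the proteoglycan gene Esm1 from 19.8 ± 5.60 to 6.12 ± 1.96 CPM (-1.73, SE 0.27, adjusted p = 2.6e-04) and the Notch ligand gene Dll4 from 67.9 ± 12.3 to 42.7 ± 11.0 CPM (-0.67, SE 0.18, adjusted p = 0.0136). Of 7 hypoxia-inducible genes, 1 was higher, 1 lower and 5 did not pass, with a median of 0.00. The glucose transporter gene Slc2a1 rose by 1.24 (SE 0.30, edgeR adjusted p = 0.00668), and the kinase gene Pdk1 changed by -0.68 (SE 0.19, adjusted p = 0.0186). Vegfa, the growth factor gene classically induced by low oxygen and named after its values were seen, was at 387 ± 129 and 389 ± 141 CPM (0.00, SE 0.25, adjusted p = 0.995).

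Venous, mural and stromal lists were read beside the members because they can hold ligand or receptor transcripts. Of 6 venous genes 1 was higher and 3 were lower (median -0.56): Selp, the P-selectin of activated endothelium, rose by 1.88 (SE 0.25, edgeR adjusted p = 6.8e-05), and Slc6a2 (-1.88, SE 0.26, adjusted p = 1.2e-04), Ephb4 (-1.12, SE 0.22, adjusted p = 0.00199) and Vwf (-1.18, SE 0.35, adjusted p = 0.0241) fell. The call of Vwf was lost without Normoxia 1 (adjusted p = 0.0510), and within libraries O to S its log2 fold change was 0.11. Of 6 fibroblast genes 1 was higher and 3 were lower (median -0.32), with Pdgfra, a receptor of alveolar fibroblasts, at 1.19 (SE 0.16, edgeR adjusted p = 1.1e-04) and Scube2 at -2.72 (SE 0.29, adjusted p = 1.1e-05). Npnt (adjusted p = 0.0170) and Inmt (adjusted p = 0.0279) fell by 0.75 and by 1.97 on the log2 scale, calls that 4 and 3 of 13 fits without 1 library lost (Npnt without Normoxia 2 or Hyperoxia 3, 4 or 6, and Inmt without Normoxia 1 or Hyperoxia 3 or 5). Of 7 pericyte genes, Trpc6 was higher (1.24, SE 0.30, edgeR adjusted p = 0.00668) and Cox4i2 lower (-0.80, SE 0.28, adjusted p = 0.0489), the latter a call lost in 12 of 13 fits without 1 library (each except Normoxia 6), with an adjusted p of 0.0571 to 0.108, and the median was -0.27. Over all the lists, 18 of 130 distinct tested genes were higher and 32 lower, with a median of -0.16. Of all genes tested, 11.8% were called higher and 10.8% lower. The lists were chosen with earlier results of these data known, so nothing is read from the totals.

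The direction of the members held under nearly every way of processing the counts. Of 100 alternative values, 99 kept the direction, and the exception was Kitl within libraries O to S (-0.05). Apln ran from 1.36 to 1.79, Kit from -2.91 to -2.42 and Kitl from -0.05 to 0.35. Aplnr ran from -8.22 to -3.69, with the same direction in all.

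**Figure D4:**
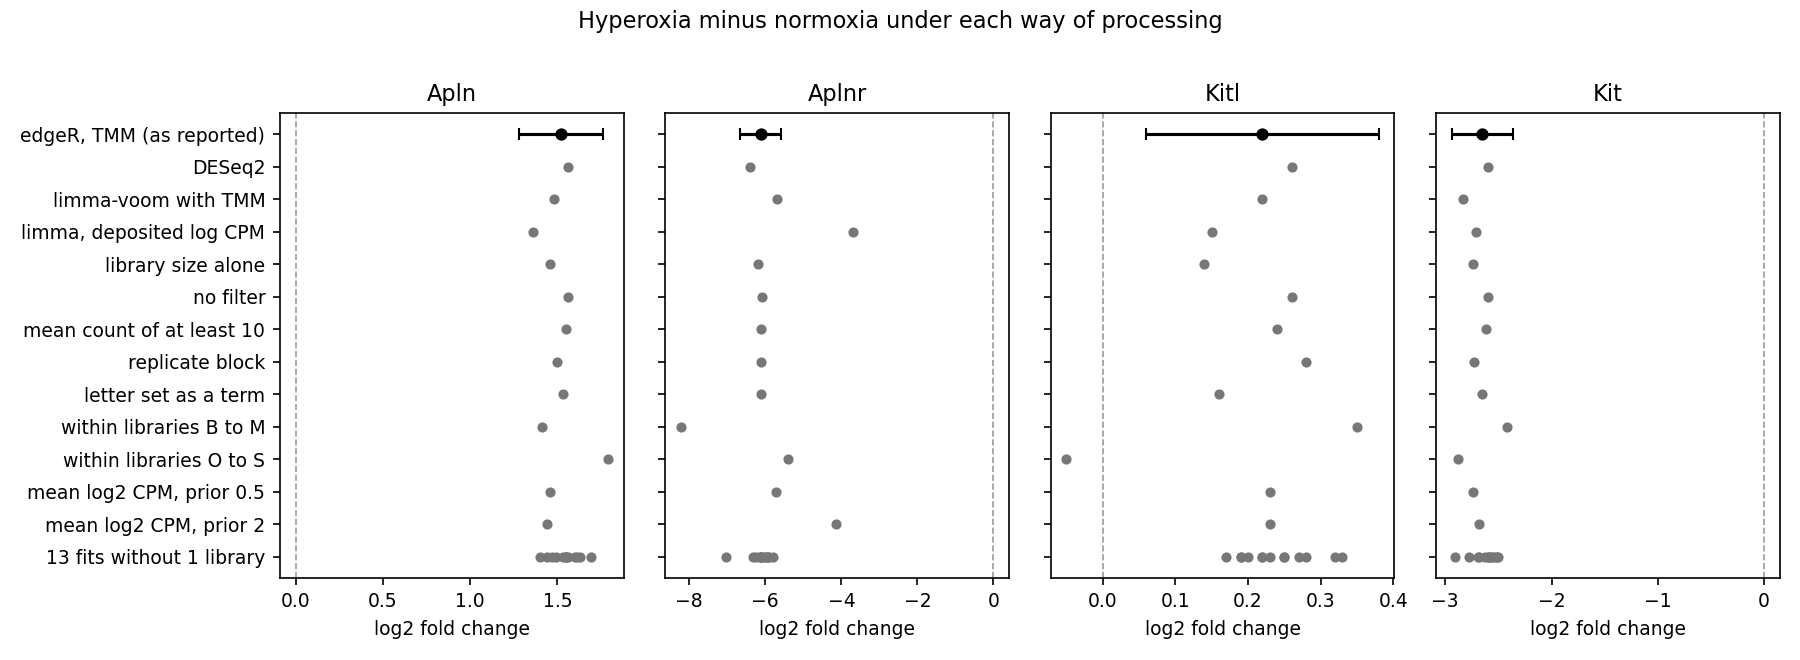
Log2 fold change of each member (hyperoxia minus normoxia) under each way of processing, on axes that differ between panels. The black point is the reported edgeR value with its SE, grey points are the alternatives, and the dashed line marks 0. Grey points of Aplnr spread from -8.22 to -3.69, and 1 point of Kitl, within libraries O to S, is below 0.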

How the data were processed

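Total RNA from mouse lung was made into 3′ libraries, 7 normoxic and 6 hyperoxic, grouped by their labels. Reads were pseudoaligned by the authors (kallisto, run through BioJupies), who deposited whole-number counts per gene symbol, with mm10 named in their processing notes, and log10(CPM + 1) values made from these counts (recomputed here to within 4.4e-16). The annotation and strand setting are not given in the sources used here. All columns were mapped, and 0 were left out. Neither the labels nor the methods say that each library came from a separate mouse, so p-values measure the spread between these libraries. In all 36 same-group pairs the counts differed by more than sampling noise.

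Counts were fitted across all genes with edgeR 4.0.16 (glmQLFit, glmQLFTest) in R 4.3.3, with TMM scaling and filterByExpr, and p-values were adjusted by Benjamini-Hochberg. CPM values are TMM-scaled, and log2 CPM uses a prior count of 2. Total counts limit the precision, and floors (3 counts) and the exact Clopper-Pearson interval of the pooled ratio cover counting error only, since no source used here names molecular identifiers. Alternatives were DESeq2 1.42.0, limma 3.58.1 (voom, and on the deposited values taken to the log2 scale), a prior count of 0.5, scaling by library size alone, filters of none or of a mean count of at least 10, blocking on replicate number, a term for the letter set, each letter set alone and each library left out. Coordinates are from GENCODE M21 (GRCm38), matched by symbol.

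The members and the gene lists were chosen with earlier results of these data known. The genes named are the members, all genes of the apelin peptide and KITL release lists, up to 3 higher and 3 lower genes with the smallest adjusted p in each other list, and 3 neighbours per member among genes whose mean log2 CPM reached 3. Single values of 2 listed genes are not reported here. The ratios to endothelial markers, the lists without Hyperoxia 1 and the member differences with a prior count of 2 were added after the data were seen.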

Additional observations from a re-analysis of the deposited data

Results flagged for a closer look

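Summed levels of the 17 gene lists and the 4 members were screened for a library far from the rest of its group, by Dixon's ratio at 95%. Of 42 groups examined, 2 held such a library, and chance alone gives about 2.1. The list of KITL release genes was lowest in Normoxia 5, at 7.97 on the log2 CPM scale, with the nearest other normoxic library at 8.24 (ratio 0.689 against a critical value of 0.568). The mast cell list was lowest in Hyperoxia 1, at 0.10, with the nearest other hyperoxic library at 2.80 (ratio 0.643 against 0.625). Hyperoxia 1 was also the lowest hyperoxic library for 54 of the 130 tested list genes and the highest for 37.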

How the results depend on the processing

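Apln, Kit and Kitl moved by less than the spread between replicates under every alternative run, except that Kitl reversed to -0.05 within libraries O to S. Aplnr moved to -3.69 with limma on the deposited values, -8.22 within libraries B to M, -5.39 within O to S and -4.14 as a difference in mean log2 CPM with a prior count of 2, and to between -7.04 (without Hyperoxia 5) and -5.79 with 1 library left out. With 1 library left out, Apln was 1.40 to 1.69, Kit -2.91 to -2.50, Kitl 0.17 to 0.33 and the pooled Aplnr ratio 66.0 to 217. Within libraries B to M 679 genes were called higher and 441 lower, and 14 list genes were lower. With a replicate block, a fit that leaves out Normoxia 7, 703 genes were called higher and 588 lower, and the members other than Apln, which moved by less than its SE, were at -6.11 (Aplnr), -2.73 (Kit) and 0.28 (Kitl). Over 6 pairs, same-numbered libraries had correlations of -0.33 to 0.27, 1 of them over 0.1, and 1 normoxic library correlated best with its own number, so they share only a number. Of all called genes 52.3% were higher, against 42.7% with library size alone, 38.8% with limma on the deposited values and 60.6% within libraries B to M. Over all genes tested the median log2 difference was -0.03, and it was -0.10 when scaled by library size only and -0.16 in limma's fit of the deposited values. Counts of calls within single lists, mostly of 0 to 5 genes, moved by over 1.5 times in 95 of 782 alternatives. The cause of these shifts was not tested. Depth limits Aplnr in hyperoxia, where a level under the floor cannot be told from 0.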
